A study of Mus musculus with 4 samples.

Results

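The subject was the set of tumour cell barcodes with many transcripts of major histocompatibility complex (MHC) class II and few transcripts of macrophages or T cells, labelled tumour dendritic cells. A barcode belonged to it with at least 20 unique molecular identifiers (UMIs, counted transcripts) of H2-Aa, H2-Ab1 and H2-Eb1 together. It also needed fewer than 20 UMIs of Lyz2, C1qa, C1qb and C1qc together and at most 1 UMI of Cd3d, Cd3e and Cd3g together. Of 37151 kept barcodes, 265 (0.713%) met the rule, with 29 of 9405 in WT, 26 of 8410 in KO, 95 of 10538 in Young and 115 of 8798 in Aged. Of these, 155 carried leukocyte and dendritic transcripts as a group, though 1 in WT and 2 in KO had no UMI of the leukocyte genes used below. The other 110 carried keratin or collagen transcripts and almost no leukocyte transcripts, so for them the data went against the label. These sets are called keratin-low and keratin-high members, and most results are given for each.

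The 4 droplet libraries came from tumours of MB49, a mouse bladder carcinoma line, from which cells positive for CD45 (the pan-leukocyte antigen) and CD8 had been sorted. WT and KO came from subcutaneous tumours of C57BL/6Slac mice of 10 to 12 weeks, wild type or BFAR-CD8-KO, a deletion of Bfar in CD8+ T cells whose Cre driver the sources used here do not give. Young and Aged came from Rag1-/- hosts of 8 to 10 weeks (strain given as B6.129S7-Rag1tm0Mom/J for Young and B6.129S7-Rag1tm1Mom/J for Aged), which lack mature T and B cells. On the day of tumour inoculation CD8+ T cells were injected intravenously, from donors of 8 weeks for Young and of 18 months for Aged. Per the labels, the deletion and the donor's age were thus properties of the T cells, while the tumours of Young and Aged grew in hosts of one age range. The labelled cell type of all 4 libraries is CD8+ T cells, and 35108 of the kept barcodes carried at least 2 CD3 UMIs with fewer than 20 UMIs of class II. Cells of 3 mice were pooled in each library, and each group had 1 library, so no difference between groups has a replicate check and no test was made. Intervals are 95% intervals for counting error alone. The sort can set any share of barcodes.

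Dendritic cells take up antigen and present its peptides on MHC class II to CD4+ T cells. Ciita switches the class II genes on, Cd74 escorts the class II dimer, the proteases Ctss and Ctsl degrade Cd74, and H2-DM loads the peptide while H2-O restrains it. Conventional type 1 dendritic cells, marked by Xcr1 and Clec9a, present tumour antigen on MHC class I to CD8+ T cells. Cd209a marks a part of type 2 and monocyte-derived dendritic cells, and Ccr7 rises when a dendritic cell matures and leaves for the lymph node. Interferon-gamma, a product of T cells, turns on class II genes in many other cell types through Ciita, together with Irf1, guanylate-binding proteins such as Gbp2, and the chemokine Cxcl9.

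Promoters are shown for 2 of the class II genes that chose the members, for 2 genes of class II loading that the rule did not use, and for 2 interferon-gamma genes that the later results turn on. The stretch from 100 bases to 1 base before the annotated gene start is given, 5′ to 3′ on the gene's strand, from RefSeq on GRCm38.p6. Capitals mark matches to GATTGG, or to CCAATC on the opposite strand, the core of the Y box of class II promoters, in the first 4 sequences. In Irf1 they mark the gamma-activated site TTCNNNGAA, and in Gbp2 the interferon-response core TTTCNNTTTC (on the other strand GAAANNGAAA).
H2-Aa, chr17:34287824-34287923, minus strand: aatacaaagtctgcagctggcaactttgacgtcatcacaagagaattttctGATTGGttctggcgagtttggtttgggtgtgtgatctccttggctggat
H2-Eb1, chr17:34305767-34305866, plus strand: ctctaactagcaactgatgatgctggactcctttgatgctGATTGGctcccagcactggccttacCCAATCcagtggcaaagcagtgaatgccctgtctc
H2-DMb1, chr17:34153091-34153190, plus strand: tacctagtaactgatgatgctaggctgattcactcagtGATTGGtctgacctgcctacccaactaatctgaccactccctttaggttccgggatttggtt
H2-Ob, chr17:34238805-34238904, plus strand: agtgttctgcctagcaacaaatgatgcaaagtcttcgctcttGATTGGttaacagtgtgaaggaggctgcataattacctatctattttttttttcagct
Irf1, chr11:53769914-53770013, plus strand: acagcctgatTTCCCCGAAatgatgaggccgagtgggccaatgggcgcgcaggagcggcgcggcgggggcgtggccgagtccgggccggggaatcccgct
Gbp2, chr3:142620563-142620662, plus strand: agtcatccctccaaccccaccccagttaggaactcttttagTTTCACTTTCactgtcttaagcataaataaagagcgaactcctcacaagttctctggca

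The 4 class II promoters held GATTGG at positions -49 (H2-Aa), -60 (H2-Eb1), -62 (H2-DMb1) and -58 (H2-Ob) of the start, and H2-Eb1 held it a second time, on the other strand, at -35. Among 27025 promoters, 9.11% held GATTGG or CCAATC in this window. The site of Irf1 began at -90, and 2.60% of promoters held TTCNNNGAA. That of Gbp2 began at -59, and 0.966% held the interferon-response core on either strand. A match is a description of the letters and no measurement of binding.

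The selected barcodes fell apart into a keratin-free and a keratin-rich set, with none in between. Krt8, Krt18 and Krt19 encode keratins of simple epithelia, and Dcn and Col1a1 encode matrix proteins. Their 5 transcripts summed to 0 or 1 UMI in the 155 keratin-low members and to between 13 and 1420 UMIs in the 110 keratin-high members. A limit of 5 UMIs, set after these values were seen, was used to part them. Keratin-low members numbered 11 in WT, 12 in KO, 84 in Young and 48 in Aged, and keratin-high members 18, 14, 11 and 67.

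**Figure D1:**
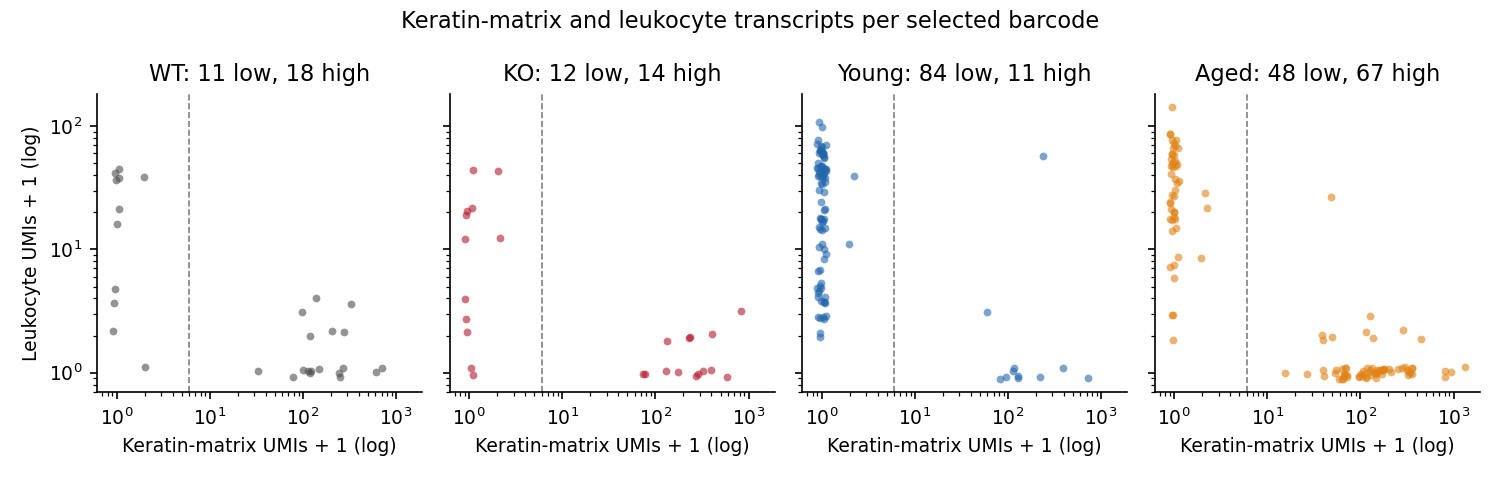
UMIs of Krt8, Krt18, Krt19, Dcn and Col1a1 plus 1 (horizontal, log axis) against UMIs of the leukocyte genes Ptprc, Coro1a and Laptm5 plus 1 (vertical, log axis) in each selected barcode, one panel per library, with the limit of 5 UMIs as a dashed line. The members formed 2 clouds in every library, and of the 110 keratin-high members 2 had 5 or more leukocyte UMIs.

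The leukocyte genes followed the same split. Ptprc encodes CD45, the antigen of the sort, and Coro1a and Laptm5 are expressed throughout the blood lineage. Ptprc stood at 264 CPM (counts per 1000000 UMIs) in keratin-low members of WT, 206 in KO, 280 in Young and 316 in Aged, and at 1.37, 3.10, 18.0 and 2.35 CPM in the keratin-high members. Of the keratin-high members, 0 of 18 in WT, 0 of 14 in KO, 1 of 11 in Young and 1 of 67 in Aged had at least 5 UMIs of the 3 leukocyte genes. In the keratin-low members this was 7 of 11 in WT, 7 of 12 in KO, 65 of 84 in Young and 45 of 48 in Aged. Keratin-high members also had higher UMI totals, with median UMI totals of 40646.5 in WT, 39129 in KO, 29639 in Young and 25929 in Aged, against 12025, 7429.5, 13454 and 14701.5 in keratin-low members.

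The rule's limits fell at the following values. The lowest class II sum inside was 20 UMIs and the highest outside 19, with 7 Young and 13 Aged members between 20 and 24 and 8 Young and 8 Aged barcodes between 15 and 19. The macrophage limit alone kept out 2 WT, 0 KO, 9 Young and 6 Aged barcodes. The CD3 limit alone kept out 44, 32, 252 and 67. Libraries shared kept barcodes (19 between WT and KO, 136 between Young and Aged, 1 between KO and each of Young and Aged), and no member was shared.

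Keratin-low members carried the class II machinery and the genes of conventional type 1 dendritic cells at levels far above those of T cell barcodes, those with at least 2 UMIs of CD3 genes and fewer than 20 of class II (35108 in all). The class II genes chose them and are given as a description. The alpha chain H2-Aa (ENSMUSG00000036594) stood at 8541 CPM in WT, 8509 in KO, 9566 in Young and 9830 in Aged, against 3.53, 2.42, 14 and 7.38 CPM in T cell barcodes. The beta chain H2-Ab1 (ENSMUSG00000073421) stood at 9292, 8136, 10448 and 10215 CPM. The chaperone Cd74 stood at 16994, 15130, 26003 and 25564 CPM, against 44.8, 44.9, 78.7 and 55.6 CPM in T cell barcodes. These 3 genes were detected in every keratin-low member.

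Markers that the rule did not name followed. Xcr1, the receptor for the chemokine XCL1, was detected in 52 of 84 Young and 28 of 48 Aged keratin-low members and stood at 174 and 173 CPM, and at 101 CPM in WT and 119 CPM in KO. Clec9a, a receptor for actin of dead cells, stood at 149 CPM in WT, 151 in KO, 259 in Young and 385 in Aged. Among T cell barcodes of the 4 libraries, Xcr1 was at most 0.798 CPM and Clec9a at most 0.198 CPM. Flt3, the growth factor receptor of dendritic cells, stood at 108, 119, 139 and 155 CPM, and Wdfy4, needed for cross-presentation by type 1 cells, at 277, 175, 545 and 555 CPM. Zbtb46, a transcription factor of conventional dendritic cells, was thinner, with 6.76 CPM in WT, 31.7 in KO, 27.7 in Young and 68.7 in Aged. At least 1 UMI of Xcr1 or Clec9a was found in 65 of 84 Young (77.4%) and 37 of 48 Aged (77.1%) keratin-low members, in 9 of 11 in WT and in 5 of 12 in KO.

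With each barcode thinned to 2000 UMIs, so that depth could not set the share, 23.5% of 68 Young and 9 of 45 Aged keratin-low members had an Xcr1 UMI (61.9% and 58.3% without thinning). The thinned share in T cell barcodes was 0.0882% and 0.0375%. Clec9a was seen in 29.4% and 35.6% after thinning, against 0.0331% and 0.0250% of T cell barcodes. Thinning left out 16 Young and 3 Aged keratin-low members below 2000 UMIs. The median depth of T cell barcodes before thinning was 4417 UMIs in Young and 5743 in Aged.

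Against T cell barcodes of their own library, 14 of 15 measured class II genes in Young and 15 of 15 in Aged stood past 2-fold higher in keratin-low members, where 14.2% of all 8365 measured genes in Young and 14.6% of 8594 in Aged did. Genes under 20 UMIs over both sides, or under 10 CPM on each, were left out as not measured. The median log2 ratio of the class II list was 6.1 in Young and 6.09 in Aged. Of the type 1 list, 14 of 15 measured genes in Young and 13 of 14 in Aged stood higher, with medians of 5.37 and 6.26, and of the list shared by all dendritic cells 6 of 10 in each, with medians of 1.74 and 1.85. Of the type 2 list, 5 of 6 and 6 of 7 stood higher and 1 in each stood lower. Since the rule chose the barcodes from these same cells, by 3 class II genes and by limits on macrophage and CD3 genes, the counts describe the set and were not tested.

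Apart from the genes the rule used, such as H2-Ab1 (log2 9.51 in Young and 9.66 in Aged), the genes with the largest ratios in both libraries were Plbd1, a lysosomal phospholipase-like protein (log2 8.88 in Young, 9.47 in Aged), Wdfy4 (8.63, 9.03) and Cd74 (8.35, 8.82). H2-DMb1 followed at 8.08 and 8.70, Alox5ap, which serves leukotriene synthesis, at 7.81 and 8.97, and Clec9a at 7.76 and 8.38. The protease inhibitor Cst3 stood at 33553 CPM in Young and 30729 CPM in Aged (log2 7.64 and 7.80), and the myeloid transcription factor Spi1 at log2 7.51 and 8.08. Spi1, Csf2rb (7.18, 7.66), Mpeg1 and Alox5ap are known for the myeloid lineage as a whole, so the leading genes held general myeloid as well as dendritic genes. All 10 measured genes of the T cell list stood past 2-fold lower, with medians of -5.76 in Young and -6.33 in Aged, where 23.2% and 26.3% of measured genes did. Among them Cd3d, Cd3e and Cd3g were limited in members by the rule and chose the T cell barcodes, so their direction was fixed in advance.

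**Figure D2:**
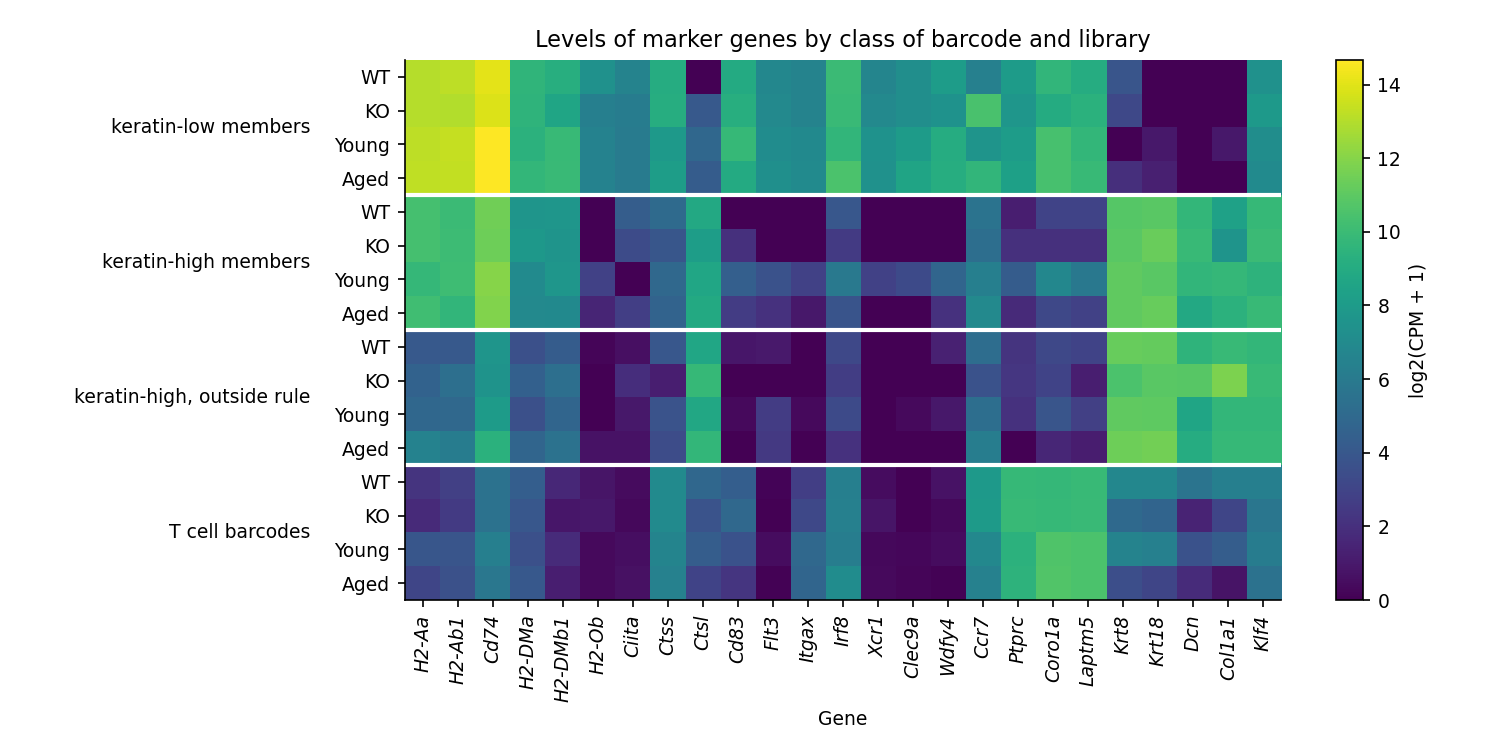
Heat map of log2(CPM + 1) for 25 marker genes in keratin-low members, keratin-high members, keratin-high barcodes outside the rule and T cell barcodes, each for WT, KO, Young and Aged. Dendritic markers such as Xcr1, Clec9a and Wdfy4 were higher in keratin-low members than in the other 3 sets drawn, and class II genes stood high in both sets of members.

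The class II pathway of the keratin-low members had the parts of a professional presenting cell. H2-DMb1 stood at 575 CPM in WT, 389 in KO, 943 in Young and 992 in Aged, and H2-Ob, the part of H2-O usual in B cells and some dendritic cells, at 169, 79.3, 90.7 and 88.7 CPM. The protease Ctss stood at 541, 563, 231 and 286 CPM, while Ctsl, the protease usual in thymic epithelium and many tissue cells, stood at 0, 15.9, 28.7 and 18.6 CPM. Ciita was detected at 94.7, 71.4, 67.8 and 68.7 CPM. Cd83, which protects surface class II from degradation, stood at 500, 579, 894 and 501 CPM.

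CD8 transcripts in the keratin-low members were mostly of the alpha chain. Mouse type 1 dendritic cells of lymphoid organs carry CD8 as an alpha homodimer, whereas T cells carry alpha and beta chains. Young had 58 UMIs of Cd8a and 18 of Cd8b1 (76.3% Cd8a, 65.2 to 85.3), and Aged 41 and 11 (78.8%, 65.3 to 88.9). T cell barcodes had 45.0% and 48.3% Cd8a. WT and KO keratin-low members had 1 and 2 such UMIs in all, too few for a share.

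Defining markers of B cells, macrophages and mast cells were sparse in Young and Aged keratin-low members, while lists shared with monocytes and plasmacytoid cells, given below, were not. Siglech, a plasmacytoid marker, reached 2 UMIs in 3 and 2 keratin-low members, and of the 8 B cell genes Ighm alone had UMIs (60 and 50), with Cd79a and Ms4a1 at 0. The 10 macrophage genes summed to 58 and 38 UMIs, but C1qa, C1qb and C1qc among them were limited by the rule. In KO 7 of the 8 B cell genes had UMIs, 81 in all with 49 in 1 barcode, and in WT they had 3. Single barcodes carried several of the larger signals: 1 WT barcode held 1545 UMIs of the mast cell list and 1 KO barcode 867. In 1 Aged barcode S100a9, a neutrophil gene, had 239 UMIs, and 1 Young barcode held 470 of the 522 UMIs of the granzyme gene Gzmc. Their part in the differences below was not tested, except where a value is given without them. Xist, transcribed from the inactive X chromosome, had 118 UMIs in WT and 104 in KO keratin-low members and 0 in Young and Aged, and the Y-linked Ddx3y had 51 in Young and 32 in Aged, so levels were not compared across the pairs.

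The CD3 limit left out many barcodes with dendritic transcripts. Of the barcodes kept out by CD3 alone, 22 in WT, 19 in KO, 249 in Young and 51 in Aged were keratin-low, which is 2.36% (2.08 to 2.67) of kept barcodes in Young and 0.580% (0.432 to 0.762) in Aged. They carried both programmes. Xcr1 was detected in 170 of the 249 in Young and 34 of the 51 in Aged, at 112 and 120 CPM, and Cd8b1 stood at 303 and 374 CPM against 891 and 921 CPM in T cell barcodes. Their median UMI total was 22152 in Young and 23945 in Aged, above that of keratin-low members and of T cell barcodes. Doublets were not called, and whether these barcodes held a dendritic and a T cell together was not tested.

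In WT, Young and Aged the Xcr1 subset made up most of the keratin-low members that had a subset gene, and in KO the Ccr7 subset did. A barcode was assigned with at least 1 UMI of exactly 1 of Xcr1, Cd209a and Ccr7. In Young, 50 of 84 (59.5%) fell to Xcr1, 1 to Cd209a and 5 to Ccr7, with 26 that had none and 2 with more than 1. In Aged, 26 of 48 (54.2%) fell to Xcr1, 3 to Cd209a and 6 (12.5%) to Ccr7, with 11 that had none and 2 with more than 1. WT had 5, 1 and 0 of 11, and KO 2, 0 and 5 of 12. Barcodes with none were shallower, with median UMI totals of 2191 in Young and 5880 in Aged, against 16603 and 18958 in the Xcr1 subset. Clec9a was detected in 11 of these in Young and 6 in Aged, so having none of the subset genes did not mean lacking type 1 transcripts. Over all members the count of the Ccr7 subset was 9 of 95 in Young and 39 of 115 in Aged, but 33 of those 39 were keratin-high, as were 4 of the 9 in Young.

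**Figure D3:**
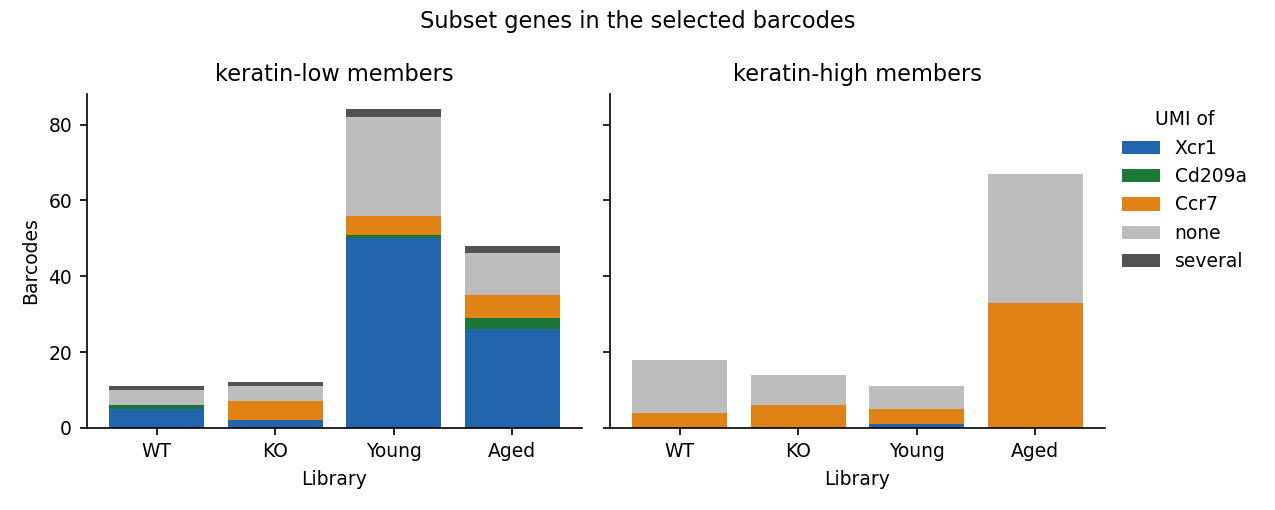
Stacked bars of the number of barcodes per library with a UMI of Xcr1, Cd209a, Ccr7, none or several of them, for keratin-low members (left) and keratin-high members (right). Xcr1 barcodes were nearly all keratin-low, whereas 33 of the 39 Ccr7 barcodes of Aged were keratin-high.

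The Xcr1 subset carried further genes of type 1 cells and of division when set against the sum of the other subsets. Entpd1, the ectonucleotidase CD39, stood at log2 7.15 in Young and 6.87 in Aged, and the sialyltransferase gene St6gal1 at 6.5 and 6.28. Tlr3, the receptor for double-stranded RNA, stood at 5.26 and 5.54. Top2a and Birc5, both needed in mitosis, stood at 7.0 and 5.60 and at 6.81 and 5.48. The other subsets together had 6 barcodes in Young and 9 in Aged, so the ratios rest on few barcodes and on the pseudocount of 1 CPM.

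Summed over its barcodes (5 in KO, 5 in Young and 6 in Aged), the Ccr7 subset of keratin-low members carried genes of mature dendritic cells. The sums do not show how many of these barcodes carried each gene. Fscn1, an actin bundler of dendrites, stood at 1895 CPM in KO (in 1 barcode), 3057 CPM in Young (in 1 barcode) and 5541 CPM in Aged (in 5 of 6). Ccl22, a chemokine for regulatory T cells, stood at 2638, 1067 and 2554 CPM, and Il4i1, an amino acid oxidase, at 160, 170 and 527 CPM. Relb, an NF-kappaB subunit of maturation, stood at 291 CPM in Young and 662 CPM in Aged, against 74.6 to 83.3 CPM in the Xcr1 subsets. When all members were used instead, the leading genes of the Ccr7 subset were Sprr1a (smaller log2 ratio 10.37), an epithelial envelope protein, and Gpx2 (8.90), a glutathione peroxidase of epithelia, ahead of Fscn1 (8.25). In keratin-high members Ccr7 stood at 46.5 CPM in WT, 38.8 in KO, 81.0 in Young and 118 in Aged, and Fscn1 at 4.10, 9.31, 6.00 and 10.8 CPM.

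The few Cd209a barcodes of keratin-low members, 1 in Young and 3 in Aged, carried myeloid and monocyte genes. Cybb, a subunit of the phagocyte oxidase, stood at log2 8.46 in Young and 7.99 in Aged against the other subsets. Ly6c2, a monocyte surface protein, stood at 6.34 and 3.89, and Fcer1g, an adaptor of Fc receptors, at 6.02 and 4.35. With 1 barcode in Young these are the values of that barcode. No barcode kept out by the macrophage limit alone had a Cd209a UMI.

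Between Aged and Young, the full set differed first in its makeup. Over all members, 2331 of 8746 measured genes (26.7%) stood past 1.5-fold higher in Aged and 1323 (15.1%) lower. Class II genes stood lower in 12 of 15, type 1 genes in 13 of 15 and genes shared by dendritic cells in 8 of 10, with medians of -1.18, -1.24 and -1.57. The keratin-high share was 67 of 115 in Aged and 11 of 95 in Young. In keratin-low members alone those medians were 0.07, 0.08 and 0.01, with 2, 2 and 0 genes lower. Nos2, the inducible nitric oxide synthase, stood at log2 4.47 over all members, with all 422 of its Aged UMIs in keratin-high barcodes. The comparison was therefore made in keratin-low members and again in their Xcr1 subset, both chosen after the data were seen.

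In keratin-low members, genes of the interferon-gamma response stood higher with aged T cells, while class II and type 1 identity genes were near the level of Young. Genes of cell division stood lower (list median -1.39), but higher (0.62) when the 8% of barcodes with the most UMIs were left out. Over 6749 measured genes, 12.5% stood past 1.5-fold higher and 11.5% lower, with a median log2 ratio of 0.02. In the Xcr1 subset (26 Aged and 50 Young barcodes) 11.2% of 5784 stood higher and 12.9% lower. In T cell barcodes of the same libraries, 2.36% of 7881 stood higher and 2.87% lower. These held 55562464 UMIs in Young and 63161263 in Aged, against 1046922 and 698682 in keratin-low members. Counting error is larger in the smaller pools, so the shares of the 2 kinds of barcode cannot be compared in size.

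**Figure D4:**
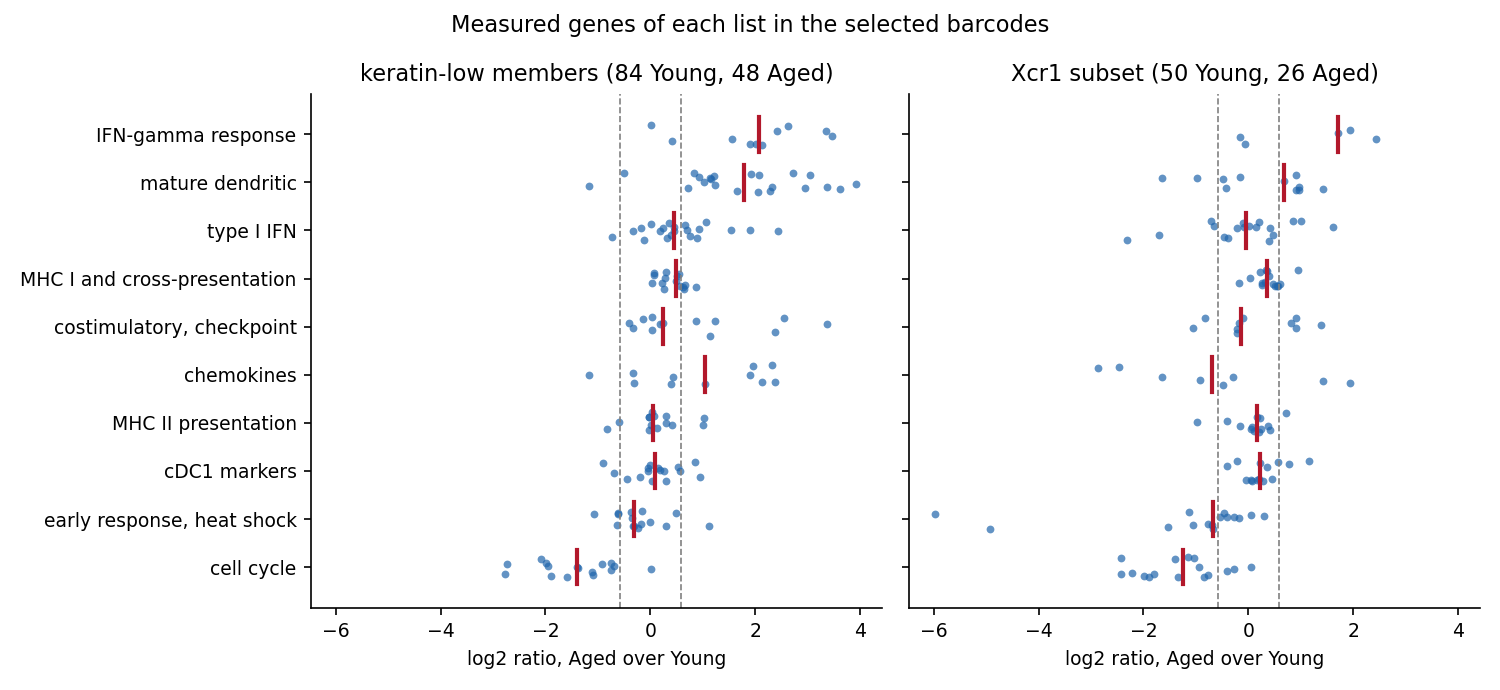
Log2 ratio of Aged over Young (CPM plus 1) for each measured gene of 10 lists, in keratin-low members (left, 48 against 84 barcodes) and in their Xcr1 subset (right, 26 against 50), with the list median as a red bar and 1.5-fold as dashed lines. The median of the interferon-gamma list lay above 0 (2.07 and 1.71) and that of the cell-cycle list below 0 (-1.39 and -1.24) in both panels, though it was 0.62 in keratin-low members without the 8% of barcodes with the most UMIs, and that of the chemokine list changed sign between them.

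Of the interferon-gamma list, 8 of 10 measured genes stood higher and 0 lower, with a median of 2.07. Irf1, a transcription factor of this response, stood at 43.9 CPM in Young and 182 CPM in Aged, in 27 of 84 and 30 of 48 barcodes, a ratio of 4.14 (2.93 to 5.93). Cxcl9, the chemokine that draws CXCR3+ T cells, stood at 43.0 and 163 CPM, a ratio of 3.80 (2.67 to 5.49). Gbp2, a guanylate-binding protein, stood at 7.64 and 87.3 CPM, a ratio of 11.4 (5.45 to 27.7). No single barcode held more than 37.5% of the UMIs of these 3 genes in either library.

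The highest and the lowest of the list were Gbp4 (log2 3.46, from 3 UMIs in Young to 29 in Aged) and Ciita, the class II activator, at 67.8 and 68.7 CPM (log2 0.02, ratio 0.687 to 1.48). The immunity GTPase gene Irgm1 stood at 8.60 and 58.7 CPM, a ratio of 6.83 (3.27 to 16.0). Socs1, a brake on interferon signalling, stood at 155 and 208 CPM (log2 0.42).

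In the Xcr1 subset 3 of 5 measured genes of the list stood higher and 0 lower, with a median of 1.71. Irf1 had a ratio of 3.32 (2.14 to 5.26), Cxcl9 of 3.92 (2.60 to 6.01) and Irgm1 of 6.00 (2.34 to 18.2). With barcodes thinned to 2000 UMIs, a Cxcl9 UMI was found in 8.82% of Young (3.31 to 18.2) and 26.7% of Aged keratin-low members (14.6 to 41.9). The shares of T cell barcodes were 0.154% and 0.425%, so Cxcl9 was seen more often in Aged there as well. Its level was also higher in Aged in keratin-high barcodes outside the rule, given below. The higher Cxcl9 of Aged was thus not particular to keratin-low members. Irf1 was found in 8.82% (3.31 to 18.2) and 28.9% (16.4 to 44.3), against 31.2% and 34.0% of T cell barcodes. Gbp2 was found in 4 of 68 (5.88%, 1.63 to 14.4) and 4 of 45 (8.89%, 2.48 to 21.2), both below the 14.3% and 15.1% of T cell barcodes. The Young and Aged intervals overlapped for each of these genes, most widely for Gbp2, for which no difference in share was detectable at this depth. For T cell barcodes the list's median was 0.05, with 0 of 11 measured genes higher and 1 lower, and Irf1 had a log2 ratio of 0.08. Whether the ratios of the keratin-low and the T cell barcodes differ beyond the variation between mice could not be tested with 1 library a group.

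Transcripts that monocytes and plasmacytoid cells also express moved the same way. The monocyte list summed to 588 CPM in Young (4 of 7 genes with a UMI) and 1284 CPM in Aged (6 of 7). Nearly all of it was Plac8, Ly6c2 and Lyz2, with the defining gene Chil3 at 0 and Ccr2 at 2 and 10 UMIs. Lyz2 was limited in members by the rule, so the sums depend in part on that limit. In the Xcr1 subset 2 of the 3 measured genes of the monocyte list stood higher, with a median of 1.03. The plasmacytoid list summed to 569 CPM in Young and 1008 CPM in Aged, with UMIs of all 10 genes in both, and 5 of 9 measured genes stood higher. Their part in the interferon-gamma difference was not tested.

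Neighbouring interferon and class I genes stood closer to Young. Of the type I interferon list 9 of 21 stood higher and 1 lower, with a median of 0.45, but in the Xcr1 subset 3 of 18 stood higher and 4 lower, with a median of -0.04. Its genes parted there: Zbp1, a nucleic acid sensor, had a ratio of 3.10 (2.10 to 4.64), whereas Ifit2 had a log2 ratio of -2.32 and Rsad2 of -1.71. Of the class I and cross-presentation list 4 of 15 stood higher and 0 lower, with a median of 0.50. Its highest member, the peptide transporter Tap1, stood at 287 and 525 CPM, a ratio of 1.83 (1.57 to 2.14). The class I heavy chain H2-K1 had a ratio of 1.54 (1.44 to 1.65).

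Ligands that check or support T cells were higher in part. Cd274, which encodes PD-L1, stood at 215 CPM in Young and 472 CPM in Aged, a ratio of 2.20 (1.85 to 2.62), and of 1.88 (1.52 to 2.34) in the Xcr1 subset. Pdcd1lg2 (PD-L2) had a ratio of 2.37 (1.68 to 3.36), and of 1.90 (1.10 to 3.29) in that subset. The costimulatory ligands Cd80 (1.18, 0.874 to 1.59) and Cd86 (1.14, 0.974 to 1.33) had ratios near 1. The log2 ratio of Cd274 in T cell barcodes was -0.17. Of the whole list of such ligands, 6 of 13 stood higher and 0 lower, with a median of 0.24.

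Genes of cell division stood lower in Aged over all keratin-low members. Of the cell-cycle list 15 of 16 measured genes stood lower and 0 higher, with a median of -1.39, and in the Xcr1 subset 13 of 16, with a median of -1.24. Stmn1, a microtubule regulator, stood at 231 CPM in Young and 58.7 CPM in Aged, a ratio of 0.254 (0.178 to 0.355). Mki67, the Ki-67 antigen, had a ratio of 0.243 (0.120 to 0.450). Rrm2, the lowest of the list and a subunit of ribonucleotide reductase, stood at 74.5 and 10.0 CPM (log2 -2.78), and the highest, the helicase subunit Mcm3, at 78.3 and 78.7 CPM (log2 0.01).

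At least 2 UMIs of Mki67 and Top2a together were found in 15 of 84 Young (17.9%, 10.4 to 27.7) and 2 of 48 Aged keratin-low members (4.17%, 0.509 to 14.3), so these levels rested on few barcodes. When the 8% of barcodes with the most UMIs in each library were left out, the list's median was 0.62. At equal depth, with barcodes thinned to 2000 UMIs, a Stmn1 UMI was seen in 19.1% of Young (10.6 to 30.5) and 6.67% of Aged barcodes (1.40 to 18.3). These intervals overlapped. The list's median in T cell barcodes was 0.10.

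Identity genes of type 1 cells and the class II genes were close. Xcr1 stood at 174 and 173 CPM, and the ratio of H2-Aa was 1.03 (0.996 to 1.06). H2-Aa, H2-Ab1 and H2-Eb1 chose the members in both libraries and are counted in the class II list. Their closeness is therefore a description of the chosen set. Of the class II list 3 of 15 stood higher and 2 lower, from H2-DMb2 (log2 1.03) to Cd83 (-0.83). Of the type 1 list 2 of 16 stood higher and 2 lower, from the endosomal GTPase gene Rab7b (0.95) to Snx22 (-0.91). Irf8, a transcription factor on which type 1 cells depend, had a ratio of 1.81 (1.65 to 1.99), but its log2 ratio was 0.86 here and 0.87 in T cell barcodes.

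Cd207, Hmox1 and Osgin1 were among the 10 genes with the lowest ratios of Aged over Young. Cd207 encodes langerin, a lectin of Langerhans cells and of some type 1 dendritic cells. It had 96 UMIs in 20 of 84 Young barcodes and 1 UMI in 1 of 48 Aged barcodes, a ratio of 0.0156 (0.000391 to 0.0891). Thinned to 2000 UMIs, it was seen in 10 of 68 Young barcodes (14.7%, 7.28 to 25.4) and 0 of 45 Aged barcodes (0 to 7.87), and in 0% and 0.0125% of T cell barcodes. The keratin-low barcodes that met the rule's other limits but were kept out by their CD3 UMIs gave the same direction: Cd207 was detected in 68 of 249 in Young and 1 of 51 in Aged. They came from the same libraries and are no replicate.

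Osgin1, an oxidative stress gene, had 56 UMIs in 26 Young barcodes and 3 UMIs in 3 Aged barcodes, a ratio of 0.0803 (0.0161 to 0.247). Hmox1, the haem oxygenase, had 76 and 4 UMIs, a ratio of 0.0789 (0.0210 to 0.210), and 1 barcode held 30.3% of the Young UMIs. Both lay on the same side in the Xcr1 subset, at log2 -3.03 and -4.35. Plet1, a surface protein of some dendritic cells, stood at 1483 and 802 CPM, a ratio of 0.540 (0.490 to 0.596). The lowest value of all, Gzmc at log2 -7.68, was that of the 1 Young barcode named above, with 470 of 522 UMIs.

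Maturation genes stood higher, but on few barcodes. Of the mature dendritic list 20 of 22 measured genes stood higher and 1 lower, with a median of 1.79. Fscn1 came from 1 Young and 5 Aged barcodes, at 120 and 587 CPM. Ccr7 stood at 192 and 802 CPM, in 7 and 8 barcodes, and 85.6% of its Young UMIs were in 1 barcode. Il12b, a subunit of interleukin-12, had a log2 ratio of 3.05, with 90.6% of its Aged UMIs in 1 barcode, and of -0.97 in the Xcr1 subset. In that subset, which has no Ccr7 UMI by construction, 6 of 11 measured maturation genes stood higher and 2 lower, with a median of 0.68.

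The chemokine list changed sign in the Xcr1 subset, and the early response list did not. Of the chemokine list 6 of 11 stood higher and 1 lower, with a median of 1.05, but 97.2% of the Aged UMIs of Cxcl2, a neutrophil attractant, were in 1 barcode. In the Xcr1 subset 2 of 8 stood higher and 4 lower, with a median of -0.70, Cxcl9 being the highest and Cxcl2 the lowest (log2 -2.86). Ccl17, a ligand of CCR4, stood lower in both, at log2 -1.17 and -1.65. Of the early response and heat shock list 1 of 15 stood higher and 4 lower, and in the Xcr1 subset 0 and 8, where Jun had a log2 ratio of -1.53 and Fos of -0.69.

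Among genes outside the lists, those with large ratios in keratin-low members and in the Xcr1 subset were Serpina3g, a serine protease inhibitor (log2 2.53 and 1.89), and Mab21l3 (2.29 and 2.34). Ly6c2, of the monocyte list, stood at 1.72 and 2.30. Others turned on single barcodes or subsets. Fabp5, a fatty acid binding protein, had a log2 ratio of 4.43, with 55.1% of its Aged UMIs in 1 barcode, and of -0.39 in the Xcr1 subset, where it did not reach the minimum of UMIs. Ifitm1 stood at 4.17 and -0.47. S100a9 was 0 in Young, and its 239 Aged UMIs were all in 1 barcode.

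The keratin-high members were barcodes of keratin and matrix transcripts with class II, and levels of their class II pathway genes differed from those of keratin-low members. Krt8 stood at 1778 CPM in WT, 1898 in KO, 2145 in Young and 2196 in Aged, and Dcn at 836, 933, 810 and 468 CPM. H2-Aa, used by the rule, stood at 1287, 1321, 870 and 1128 CPM and Cd74 at 2842, 2755, 4116 and 3781 CPM. Both lay well below the levels of keratin-low members given above and far above those of T cell barcodes. In Young 1 keratin-high barcode, of the Xcr1 subset, held 537 class II UMIs and 59 leukocyte UMIs, where the medians of the 11 were 32 and 0. The summed Young levels of this set thus leaned on that barcode.

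Ciita was detected in 9 of 18 keratin-high members in WT, 4 of 14 in KO, 0 of 11 in Young and 10 of 67 in Aged. In the shallower keratin-low members it was detected in 4 of 11, 4 of 12, 35 of 84 and 21 of 48. Of the loading machinery, H2-DMa stood in keratin-high members at 197 CPM in WT, 225 in KO, 129 in Young and 120 in Aged. The genes typical of professional presenting cells were at or near 0. H2-Ob stood at 0, 0, 6.00 and 1.88 CPM and Cd83 at 0, 3.10, 21.0 and 5.18 CPM. Of the protease transcripts Ctsl was the higher, at 458, 289, 402 and 481 CPM, with Ctss at 32.8, 14, 30.0 and 24.0 CPM. This order was the opposite in each library to that of keratin-low members, by UMI counts not scaled for transcript length. Which protease acts on Cd74 was not measured, and whether keratin-high barcodes outside the rule share this order is not given here. Xcr1 and Clec9a had 0 UMIs in WT, KO and Aged, and 2 and 3 UMIs, each in 1 barcode, in Young.

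Keratin-high barcodes that met the rule differed in frequency between libraries. Of the keratin-high barcodes within the rule's CD3 and macrophage limits, those with at least 20 class II UMIs made up 18 of 179 in WT (10.1%, 6.07 to 15.4) and 14 of 31 in KO (45.2%, 27.3 to 64.0). In the transfers they made up 11 of 179 in Young (6.15%, 3.11 to 10.7) and 67 of 142 in Aged (47.2%, 38.8 to 55.7). The keratin-high barcodes were a mixed set. At least 3 UMIs of the collagen genes Col1a2 and Col3a1 were found in 34 of 179 in WT and 7 of 31 in KO. In Young 61 of 179 and in Aged 41 of 142 had them. The part of this mixture in the shares was not tested. Thinned to 2000 UMIs, 10.5% of WT, 41.9% of KO, 7.93% of Young and 53.0% of Aged keratin-high barcodes had at least 2 class II UMIs, and 17.0%, 54.8%, 22.0% and 65.2% had at least 1. KO stood above WT and Aged above Young at both limits. In 100 WT, 5 KO, 91 Young and 29 Aged keratin-high barcodes no class II UMI was seen. KO had few keratin-high barcodes, and each share is that of 1 library of 3 pooled tumours.

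**Figure D5:**
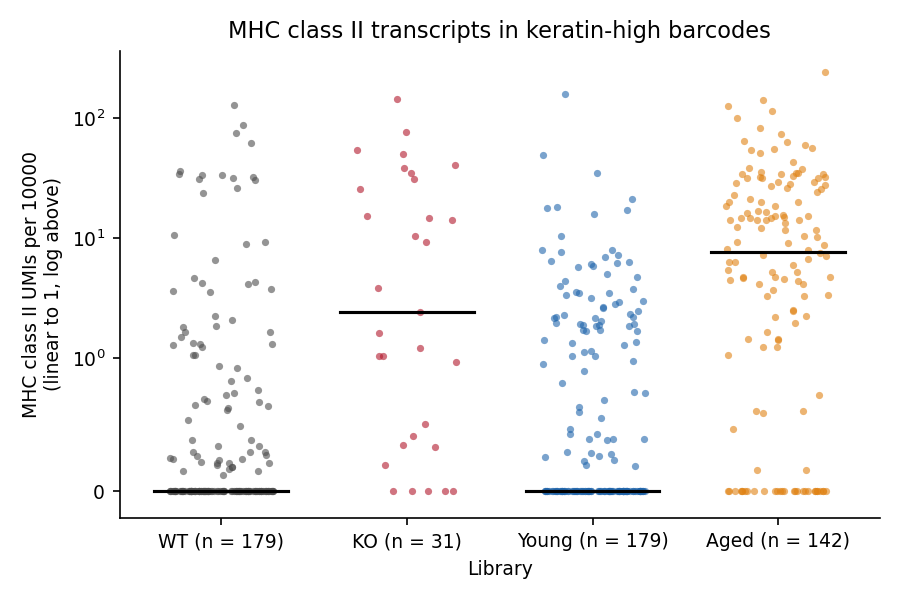
UMIs of H2-Aa, H2-Ab1 and H2-Eb1 per 10000 UMIs in each keratin-high barcode (vertical axis linear to 1 and logarithmic above), by library (179 WT, 31 KO, 179 Young and 142 Aged barcodes), with the median as a black line. Values ran from 0 upward in every library, and the medians of KO and Aged lay above 0 while those of WT and Young were at 0.

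Interferon-gamma genes were higher in keratin-high members than in keratin-high barcodes outside the rule. Of the list 8 of 12 measured genes stood past 2-fold higher in WT (where 2.60% of all measured genes did), 8 of 11 in KO (8.51%), 6 of 12 in Young (3.90%) and 5 of 12 in Aged (2.90%). None stood past 2-fold lower, where 5.03%, 9.22%, 9.74% and 2.37% of all measured genes did. The list's medians were 1.58, 1.56, 1.05 and 0.96. Since the members were chosen on class II, which is part of the same response, this is a description.

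Cxcl9 stood at 383 against 35.3 CPM in WT, a ratio of 10.9 (9.05 to 13), and at 314 against 20.3 CPM in KO (15.4, 9.13 to 28.1). In Young it stood at 750.0 against 126 CPM (5.93, 5.05 to 6.95) and in Aged at 944 against 247 CPM (3.82, 3.43 to 4.27). The ratios of Irf1 were smaller, at 1.89, 1.18, 1.21 and 1.24. Krt8 had ratios of 0.727, 1.32, 0.970 and 0.793, and Klf4, a transcription factor of epithelia, of 1.10, 1.11, 0.832 and 1.03. Neither of these genes of epithelia reached 2-fold in any library.

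In keratin-high members Aged over Young, 18.2% of 8372 measured genes stood past 1.5-fold higher and 12.5% lower, from 67 and 11 barcodes. Of the interferon-gamma list 5 of 12 stood higher and 0 lower, with a median of 0.49. Irf1 had a ratio of 2.44 (1.73 to 3.54), while Cxcl9 (1.26, 1.10 to 1.44) and Gbp2 (1.47, 1.25 to 1.74) were closer to 1. The cell-cycle list had a median of -0.12, with 1 gene higher and 6 lower of 19.

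KO and WT had too few keratin-low members (12 and 11) for a comparison of levels, and the full sets of 26 and 29 were compared. Keratin-high barcodes held 644248 of the 770357 UMIs of KO members and 731154 of the 879030 of WT members. The summed levels of the full sets thus describe mostly keratin-high barcodes. Over 7418 measured genes, 13% stood past 1.5-fold higher in KO and 10.4% lower. H2-Aa stood at 2507 CPM in WT and 2498 CPM in KO and Cd74 at 5223 and 4781 CPM. Xcr1 had 15 UMIs in each library. Of the interferon-gamma list 0 of 13 stood higher and 2 lower, and of the class II list 0 of 14 and 3.

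The mature dendritic list stood higher in 11 of 20 measured genes and lower in 1, with a median of 0.84. Ccl22 had 3 UMIs in WT and 191 in KO, 151 of the latter in 1 barcode. Fscn1 had 3 and 136 UMIs, 130 of them in 1 barcode, and all 45 KO UMIs of Il12b were in 1 barcode, with 0 in WT. Most of the difference in these 3 genes was thus held by single KO barcodes. Cd209a had 57 UMIs in 1 WT barcode and none in KO.

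Bfar, which encodes an apoptosis regulator of the endoplasmic reticulum and was deleted in T cells alone per the labels, had 4 UMIs in WT keratin-low members and 4 in KO, 27.0 and 31.7 CPM. Over all members it had 32 UMIs in WT and 38 in KO, 36.4 and 49.3 CPM (log2 0.43). It stood at 27.7 CPM in Young and 18.6 CPM in Aged keratin-low members. In T cell barcodes it stood at 32.2 CPM in WT and 22.3 CPM in KO. The sources used here do not give where the deletion lies in the counted transcript.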

How the data were processed

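The deposited values were whole-number counts of UMIs per gene and barcode for 31253 genes, written by Cell Ranger 6.1.1 (WT, KO) and 7.1.0 (Young, Aged) per the file headers. Cell Ranger 6.0.0, Seurat 3.2.3 and mm10 are named in the submitters' processing notes. WT and KO used a 3' kit, Young and Aged an immune profiling kit, per the labels. Libraries held 68017515 (Young) to 85401443 (WT) UMIs. Barcodes under 1000 UMIs or 500 genes, or with over 10% of UMIs from mitochondrial genes, were dropped. No doublet caller was run. UMIs were summed per library and class and divided by the class total (CPM). Intervals were exact (Poisson, conditional binomial, Clopper-Pearson). Log2 ratios used a pseudocount of 1 CPM and were checked on simulated counts. Members, lists and rules were chosen with earlier results of these data known; the keratin limit, the classes built on it and the CD3-positive class were added after the data were seen. Genes named were the markers, subset genes and Bfar, list members (in each list the highest and lowest, and others), and those with the 10 largest and 10 smallest Aged over Young ratios, 10 leaders per subset and 15 over other barcodes, each rule also run on keratin-low members. Mx1, Ifi30 and Clec7a were not analysed here. Python 3.11.15, numpy 2.4.6, scipy 1.17.1, pandas 2.3.3 and matplotlib 3.10.9 were used.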

Additional observations from a re-analysis of the deposited data

How the results depend on the processing

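Of 96 recomputed main values, 64 stayed within the stated limits and 32 moved. Of 612 list medians and single genes, 539 stayed, 53 moved and 20 turned sign. No paired analysis was possible because each group had 1 library, and for the same reason none was left out. Alternatives that use keratin-low members, the Xcr1 subset, 5000 UMIs or no Ccr7 subset were chosen after the data were seen. The cause of these moves was not tested.

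The share of kept barcodes was 0.104% in WT, 0.129% in KO, 0.485% in Young and 0.519% in Aged without the 8% of barcodes with the most UMIs. As keratin-low members alone it was 0.117% in WT, 0.143% in KO and 0.546% in Aged. With a minimum of 40 class II UMIs it was 0.674% in Young and 1.01% in Aged, with no CD3 UMI allowed 0.702% in Young, and with 30 class II UMIs per 10000 0.966% in Aged. Thinned to 2000 UMIs, the Xcr1 share was 24.1% in Young and 13.5% in Aged and the Ccr7 share of Aged 12.6%. In keratin-low members Aged had 54.2% Xcr1 and 12.5% Ccr7. The Cd209a share of Young was 0% with 2 UMIs required and 10.5% with summed markers.

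Genes higher in Aged members numbered 4819 with no filter on low counts, 1110 without the deepest 8% and 841 in keratin-low members, and genes lower 2908, 852 and 774. In keratin-low members, genes higher numbered 2635 with no filter and 2025 with equal subset weights, and genes lower 3248, 1554, and 1369 with equal barcode weights. Genes past 2-fold above other barcodes numbered 2335 in Young and 3579 in Aged with no filter and 1233 in Aged keratin-low members.

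Signs turned as follows, as log2 Aged over Young. Over all members, equal subset weights gave 0.18 for class II, 0.15 for genes shared by dendritic cells and -0.21 for the mature list, and keratin-low members alone 0.073, 0.0068 and, for the type 1 list, 0.085. The type 2 list was 1.08 without the deepest 8%, the pattern recognition list -0.52 with no filter, and Ccn2 1.37 with 40 class II UMIs. In keratin-low members without the deepest 8%, the cell-cycle list was 0.62, Rrm2 2.23, Hist1h2ap 1.37, H1f5 0.82, H2ac8 0.85 and Il12b -1.42. In the Xcr1 subset the chemokine list was -0.70, Fabp5 -0.39, Ifitm1 -0.47 and Il12b -0.97, and Il12b was -0.0010 without the Ccr7 subset.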
